A study of Ovis aries with 8 samples.

Results

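The G1 cyclins, their kinases, the retinoblastoma gene RB1, the transcription factor gene E2F1 and MYC were followed in cultured fetal sheep hepatocytes given metformin, an antidiabetic biguanide. Members were the rows of the deposited gene table whose symbol matched 1 of 10 listed names. A row was found for 9 of them, CCND1, CCND2, CCND3, CCNE1, CCNE2, CDK6, RB1, E2F1 and MYC, out of 27057 rows in all, and CDK4 was not analysed here. All 9 passed the filter on low values, which left 13141 genes to test.

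The 8 libraries were made from polyadenylated RNA of hepatocytes, 4 labelled basal and 4 labelled metformin, the latter after 24 h of treatment. The labels number 4 preparations, each with 1 basal and 1 metformin library. No label or design text used here states the dose, the vehicle, the age of the fetuses or whether a preparation was 1 animal or a pool. P-values therefore weigh the change against its variation between preparations, which may be technical in part. Values are FPKM, fragments scaled by transcript length and library total, which summed to between 1024543 and 1257764 per library. Depth in reads is unknown.

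Passage from G1 into DNA replication is driven by cyclins bound to cyclin-dependent kinases. D-type cyclins pair with CDK4 and CDK6, and E-type cyclins with CDK2. Both kinds of complex phosphorylate the retinoblastoma protein, which otherwise holds E2F transcription factors inactive. E2F1 is an activating member of that family, and its targets include E-type cyclin genes and the genes of DNA replication. MYC encodes a transcription factor of growth and proliferation, and in adult liver cyclin D1 is known for its induction during regeneration.

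With metformin, 5 of the 9 genes fell and 2 rose. CCND1, CCND3, CCNE1, CCNE2 and E2F1 were lower in each of the 4 preparations, and MYC and RB1 were higher in each. CCND2 and CDK6 did not pass the test. Calls are those of limma on log2(FPKM + 1) with the preparation as a block, at a Benjamini-Hochberg adjusted p under 0.05 over all genes tested. In that fit 24.1% of all genes tested fell and 19.8% rose. The metformin libraries lay wholly below the basal libraries for 3 of the 9 genes and wholly above them for 2, against 12.6% and 13.3% of all genes tested. Without the block, 3 of the 9 genes fell and 2 rose, where 9.48% of all genes tested fell and 9.68% rose.

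**Figure D1:**
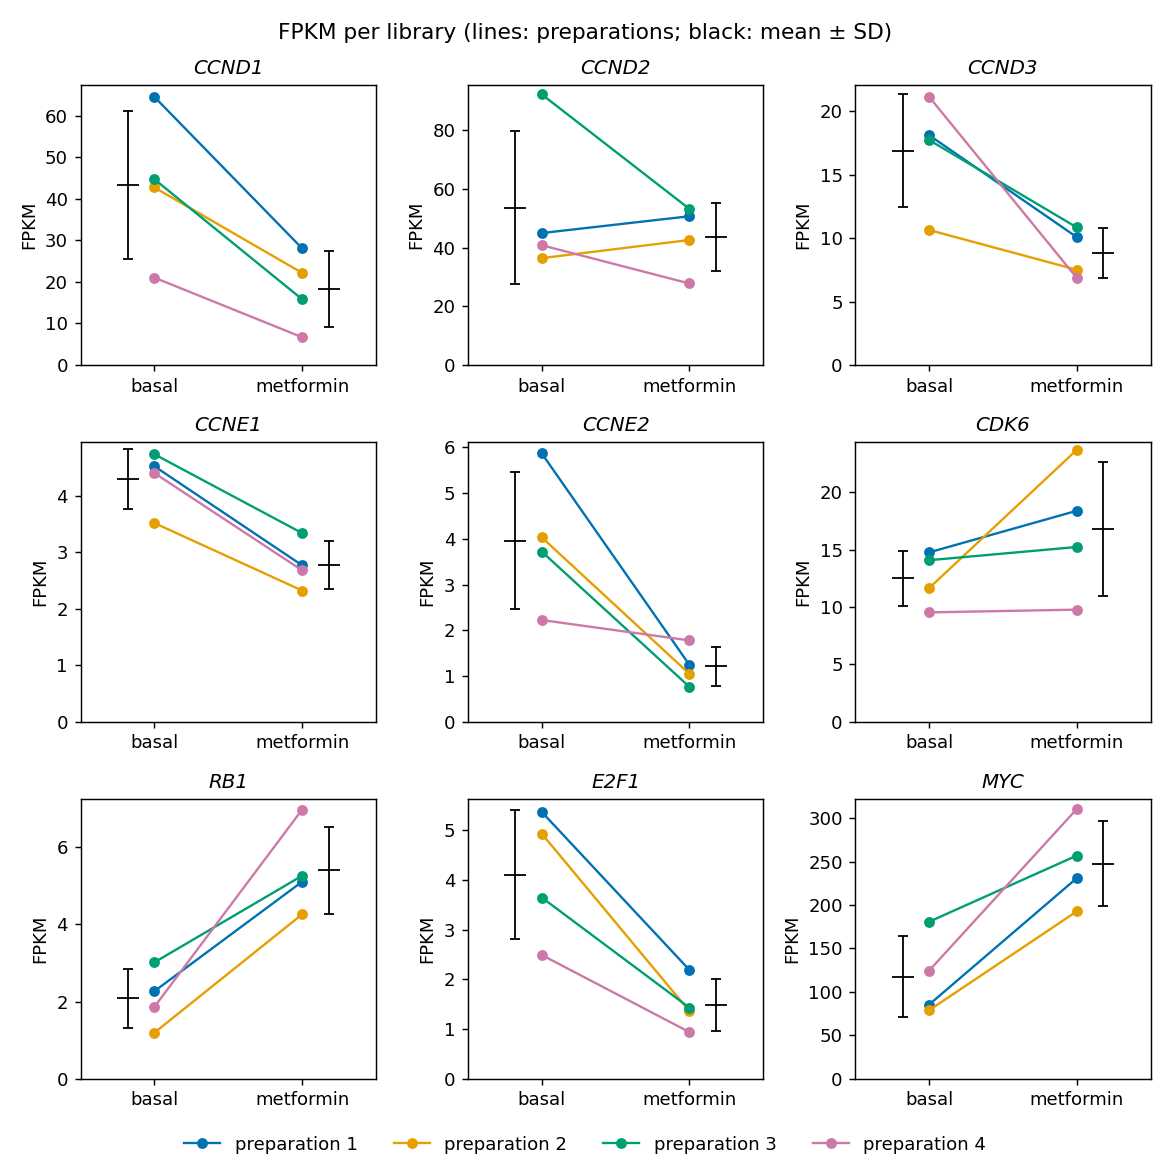
FPKM of the 9 genes in each library, with both libraries of a preparation joined by a line and the mean ± SD of each group (n = 4) in black beside them; each vertical axis starts at 0. CCND1, CCND3, CCNE1, CCNE2 and E2F1 go down and RB1 and MYC go up in all 4 preparations, while those of CCND2 go both ways.

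CCND1 encodes cyclin D1. Its FPKM was 64.6, 42.8, 44.7 and 21.0 in the basal libraries of preparations 1 to 4, and 28.1, 22.2, 15.9 and 6.70 in the metformin libraries of the same preparations. Preparation 4 was the lowest in both groups, and its basal value lay below the metformin values of preparations 1 and 2, so the groups overlapped although each pair fell. Group means were 43.3 ± 17.8 FPKM in basal and 18.2 ± 9.17 in metformin libraries (SD, n = 4 each), and the geometric mean of the 4 ratios was 0.400. The fitted log2 change was -1.26 ± 0.13 (SE, adjusted p = 0.00119, limma). Without the block its adjusted p was 0.0837.

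CCND2, encoding cyclin D2, had 45.0, 36.4, 92.2 and 40.8 FPKM in the basal libraries and 50.7, 42.6, 53.2 and 27.8 with metformin. It was higher with metformin in preparations 1 and 2 and lower in preparations 3 and 4, and the groups overlapped. The log2 change was -0.23 with a 95% interval from -0.68 to 0.22 (adjusted p = 0.348, limma).

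CCND3, encoding cyclin D3, had 18.1, 10.6, 17.8 and 21.2 FPKM in the basal libraries and 10.1, 7.52, 10.9 and 6.88 with metformin. Each pair fell, most in preparation 4, where the metformin value was 0.325 of the basal value, and least in preparation 2, where it was 0.706. The groups overlapped by 1 library, the metformin value of preparation 3 lying just above the basal value of preparation 2. The log2 change was -0.85 ± 0.18 (SE, adjusted p = 0.00964, limma).

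FPKM is scaled by length, so levels of the 3 D-type genes can be added. Their sum was 127.7, 89.8, 154.7 and 83.0 FPKM in the basal libraries and 88.9, 72.3, 80.0 and 41.4 with metformin, lower in each preparation. CCND1 made up 38.1% ± 12.8 of that sum in basal and 24.6% ± 7.74 in metformin libraries (SD, n = 4 per group). Its share was lower with metformin in all 4 preparations, and the share of CCND2 was higher in all 4, from 46.2% ± 10.7 to 62.4% ± 5.21. CCND2 was thus the most abundant of the 3 in every metformin library, whereas CCND1 exceeded it in the basal libraries of preparations 1 and 2. These shares are a description with no test.

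**Figure D2:**
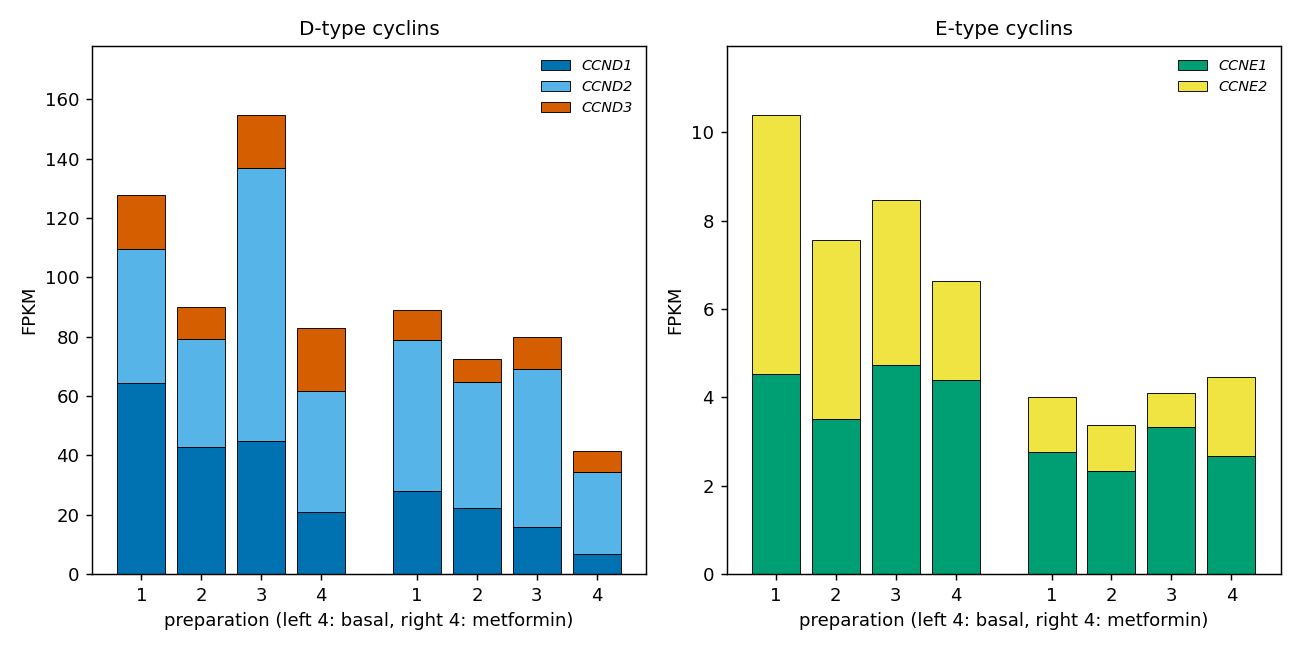
Stacked FPKM of the D-type cyclin genes (left) and the E-type cyclin genes (right) in each library; the left 4 bars of a panel are basal and the right 4 metformin, numbered by preparation. The D-type sum is lower with metformin in each preparation, with CCND1 taking 24.6% of it on average against 38.1% in basal libraries, and the E-type sum falls to between 3.38 and 4.47 FPKM.

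CCNE1 and CCNE2 encode the E-type cyclins, which activate CDK2. CCNE1 had 4.52, 3.52, 4.74 and 4.40 FPKM in the basal libraries and 2.77, 2.33, 3.34 and 2.68 with metformin. All metformin values lay below all basal values, and the ratio within a preparation varied little, from 0.610 to 0.706. The log2 change of -0.49 ± 0.12 (SE, adjusted p = 0.0149, limma) was the smallest of the 7 calls. Its adjusted p was 0.0664 without preparation 1, 0.0541 without preparation 4 and 0.0584 without the block. Under quantile normalization the log2 change was -0.27 and the adjusted p 0.0816.

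CCNE2 had 5.87, 4.03, 3.72 and 2.23 FPKM in the basal libraries and 1.25, 1.05, 0.767 and 1.78 with metformin. The metformin value was between 0.206 and 0.261 of the basal value in preparations 1 to 3, but 0.800 of it in preparation 4, which had the lowest basal and the highest metformin value. The groups did not overlap. The log2 change was -1.13 ± 0.24 (SE, adjusted p = 0.00943, limma). At these low levels log2(FPKM + 1) understates the fold, and the geometric mean of the 4 ratios was 0.309.

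The E-type sum went from 8.26 ± 1.61 to 3.99 ± 0.454 FPKM (SD, n = 4 per group). CCNE1 took 53.1% ± 10.3 of it in basal and 69.8% ± 8.73 in metformin libraries. Its share was higher with metformin in preparations 1 to 3 and lower in preparation 4.

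CDK6, a kinase partner of the D-type cyclins, had 14.7, 11.6, 14.1 and 9.53 FPKM in the basal libraries and 18.4, 23.7, 15.2 and 9.77 with metformin. Every preparation was higher with metformin, by a ratio of 2.03 in preparation 2 and between 1.02 and 1.25 in the other preparations, and the groups overlapped. The log2 change of 0.35 had a 95% interval from -0.05 to 0.75 and did not pass the test (adjusted p = 0.133, limma). Without preparation 2 it was 0.15 (adjusted p = 0.414, limma).

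RB1 encodes the retinoblastoma protein, the restraint on E2F that the cyclin complexes release. Its FPKM was 2.27, 1.19, 3.02 and 1.86 in the basal libraries and 5.11, 4.26, 5.26 and 6.97 with metformin. The metformin libraries were all above the basal ones, with ratios between 1.74 in preparation 3 and 3.74 in preparation 4. The log2 change was 1.07 ± 0.17 (SE, adjusted p = 0.00346, limma), and the geometric mean ratio was 2.69.

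E2F1 had 5.37, 4.93, 3.65 and 2.49 FPKM in the basal libraries and 2.19, 1.36, 1.43 and 0.939 with metformin. The groups did not overlap, and the ratio was between 0.276 and 0.408 in every preparation. The log2 change was -1.03 ± 0.14 (SE, adjusted p = 0.00210, limma), and the geometric mean ratio was 0.359.

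MYC had 85.3, 78.8, 180.7 and 124.4 FPKM in the basal libraries and 230.8, 192.6, 256.8 and 310.4 with metformin. All metformin values exceeded all basal values. Preparation 3, the highest basal library, rose by a ratio of 1.42 and the other preparations by 2.44 to 2.71. Group means were 117.3 ± 46.8 FPKM in basal and 247.7 ± 49.5 in metformin libraries (SD, n = 4 each), with a log2 change of 1.13 ± 0.17 (SE, adjusted p = 0.00296, limma).

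**Figure D3:**
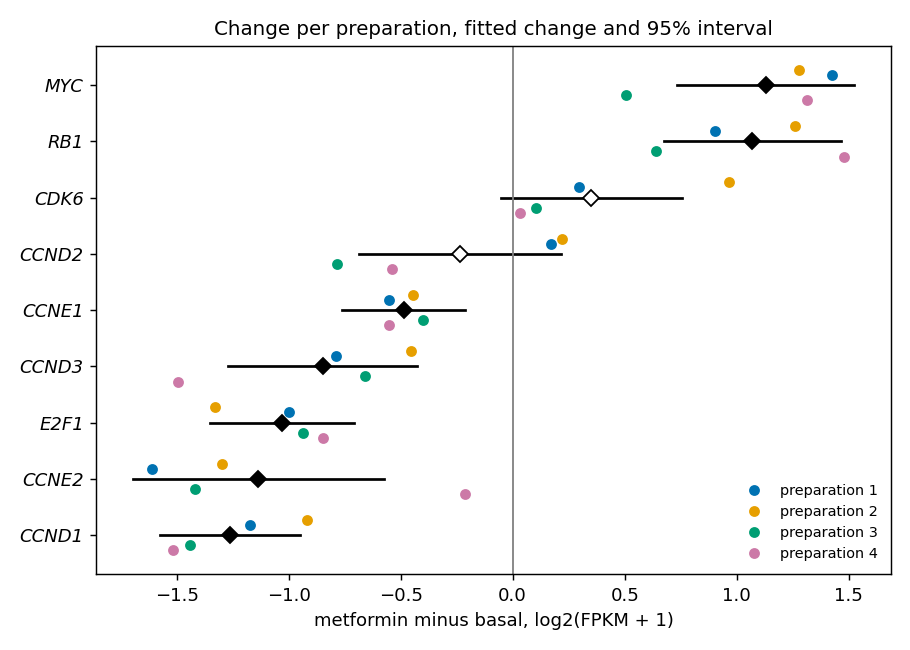
Metformin minus basal on the log2(FPKM + 1) scale for each gene, with coloured points for the 4 preparations, a diamond for the fitted change (filled where the adjusted p was under 0.05) and a line for its 95% interval. The intervals of CCND2 (-0.68 to 0.22) and CDK6 (-0.05 to 0.75) include 0, and the point of CCNE2 in preparation 4 stands apart from its other 3.

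In basal libraries the order of mean levels was MYC, CCND2, CCND1, CCND3, CDK6, CCNE1, E2F1, CCNE2 and RB1, from 117.3 to 2.09 FPKM. The one pair of neighbours whose ranges did not overlap was CDK6 and CCNE1. MYC stood at percentile 90.4 of basal means over the genes tested and RB1 at percentile 6.58. With metformin RB1 moved up from the last place to the sixth, above CCNE1 in all 4 libraries, and CCNE2 became the lowest at 1.21 ± 0.428 FPKM. The range of MYC, which had overlapped that of CCND2 in basal libraries, no longer did so.

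The authors' deposited table gives for the same rows a p-value of 0.00271 for CCND1, 0.0330 for CCND3, 0.00105 for CCNE1, 0.0363 for CCNE2, 0.0105 for RB1, 0.00228 for E2F1 and 0.0127 for MYC. Its q-value was 0.0275 for CCND1, 0.0393 for MYC and 0.0624 for CCND3, so that CCND3 passed in the fit above and not at 0.05 by that q-value. No q-value is given there for CCNE1, CCNE2, RB1 and E2F1, which are 4 of the 7 calls, nor for CDK6. The authors' deposited table gives p-values of 0.424 for CCND2 and 0.197 for CDK6.

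Genes that act beside these were read from the same fit. Inhibitors of the cyclin-dependent kinases had 2 of 4 tested members rise and 1 fall, where 19.8% of all genes tested rose and 24.1% fell. CDKN1A, encoding p21, which binds cyclin-kinase complexes, rose from 78.5 ± 23.9 to 303.9 ± 73.8 FPKM, a fitted log2 change of 1.96 (adjusted p = 0.000335, limma). CDKN2D, encoding p19, an inhibitor of CDK4 and CDK6, rose from 14.5 ± 6.76 to 26.1 ± 9.59, with an adjusted p of 0.194 without the block. CDKN2C, encoding p18 of the same INK4 family, fell from 11.1 ± 1.44 to 3.49 ± 0.868. CDKN1B, encoding p27, had a log2 change of 0.27 (adjusted p = 0.0976, limma).

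Among the other cell cycle cyclins, kinases and CDC25 phosphatases 6 of 11 tested genes fell and 3 rose. Over all genes tested the shares were 24.1% and 19.8%. Without the block 3 fell and 2 rose, against 9.48% and 9.68% of all genes tested. CDK2, the partner of the E-type cyclins, fell from 19.1 ± 2.57 to 11.8 ± 1.52 FPKM. CDC25A, a phosphatase that activates CDK2, fell from 4.88 ± 0.391 to 2.20 ± 0.524. WEE1, a kinase that inhibits cyclin-dependent kinases, rose from 67.5 ± 32.1 to 239.9 ± 80.1, and the phosphatase gene CDC25B rose from 31.3 ± 9.40 to 64.1 ± 6.86. The third gene that rose was MNAT1, a subunit of the CDK-activating kinase, named after its value was seen (log2 change 0.45). CCNH and CDK7, the other subunits of that kinase on the list, did not pass, at log2 changes of 0.0002 and 0.14. Both were also named after their values were seen.

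Of the pocket proteins, E2F factors and partners, 2 of 13 tested genes rose and 2 fell, 15.4% each way. Of all genes tested 19.8% rose and 24.1% fell. The median log2 change of the list was 0.08. E2F5, a repressor-type factor, rose from 14.9 ± 2.90 to 29.1 ± 3.45 FPKM (adjusted p = 0.00328, limma), and E2F4, of the same type, from 42.0 ± 12.2 to 56.2 ± 7.19. E2F2, an activator like E2F1, fell from 2.51 ± 1.32 to 1.64 ± 0.898. LIN9, a subunit of the MuvB complex, fell from 4.41 ± 0.695 to 2.94 ± 0.418. E2F3, also an activator, was higher with metformin in each preparation but did not pass (log2 change 0.40, adjusted p = 0.0558, limma). Of the other repressor-type factors, E2F6 and E2F8 did not pass, at log2 changes of 0.20 and 0.06. E2F7, of that type, was lower in each preparation and was not tested. Direction thus did not follow type. E2F3, E2F6, E2F7 and E2F8 were named after their values were seen. The calls of E2F2, E2F4 and LIN9 ended without the block, with adjusted p of 0.431, 0.181 and 0.0807, and those of E2F2 and LIN9 on leaving out any 1 preparation, with adjusted p of at least 0.0683 and 0.0556. For E2F4 the adjusted p was 0.0813, 0.0726 and 0.0599 without preparations 1, 2 and 3. RBL1, encoding the pocket protein p107, had a log2 change of -0.36 (adjusted p = 0.101, limma), which passed without preparation 2 (adjusted p = 0.0365).

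E2F target genes of the G1/S transition had 17 of 23 tested members fall by limma, against 24.1% of all genes tested. Of the 23, 0 rose by limma, also at an unadjusted p under 0.05. Without the block 13 fell, against 9.48% of all genes tested. Their median log2 change was -1.02, beside -0.04 for all genes tested. RRM2, needed to make deoxyribonucleotides, fell from 26.2 ± 6.61 to 5.78 ± 1.24 FPKM, and the replicative helicase genes MCM4 and MCM5 had log2 changes of -1.45 and -1.28. TK1, encoding thymidine kinase, fell from 21.0 ± 10.5 to 8.20 ± 5.54, and its adjusted p was 0.0567 without the block. The 6 members that did not pass were MCM7, RRM1, TYMS, POLA1, RFC4 and UNG, named after their values were seen, with log2 changes from -0.24 for POLA1 to 0.12 for RFC4.

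Of the MYC family, its partners and antagonists, 4 of 11 tested genes rose and 1 fell, against 19.8% and 24.1% of all genes tested. MXD1, which competes with MYC for its partner MAX, rose from 31.7 ± 8.87 to 110.9 ± 30.0 FPKM, a fitted log2 change of 1.78 (adjusted p = 0.000848, limma). MYCL rose from 5.78 ± 4.20 to 17.3 ± 11.5, with an adjusted p of 0.121 without the block. ZBTB17, encoding MIZ1, through which MYC represses genes, rose from 11.8 ± 0.742 to 29.0 ± 7.05. MLXIP rose from 20.4 ± 3.82 to 32.1 ± 2.94. The gene that fell was MLX, named after its value was seen (log2 change -0.61), a call that ended without preparation 1 or 4, while 2 genes fell without preparation 3. MAX itself had a log2 change of 0.15 (adjusted p = 0.250, limma).

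Genes known as MYC targets had 2 of 17 tested members rise and 4 fall, or 11.8% and 23.5%. Of all genes tested 19.8% rose and 24.1% fell. The median log2 change of the list was -0.02. Without the block 0 rose and 2 fell, where 9.68% of all genes tested rose and 9.48% fell. The falls numbered 1 without preparation 4, and the rises 1 without preparation 1 or 2. ODC1, the first enzyme of polyamine synthesis, rose from 86.6 ± 37.0 to 158.8 ± 33.5 FPKM, with an adjusted p of 0.0722 without the block. NOP56 and DKC1, of small nucleolar ribonucleoproteins, fell from 70.9 ± 19.0 to 44.6 ± 8.19 and from 72.7 ± 14.7 to 48.7 ± 2.17, and the purine synthesis gene GART fell from 18.4 ± 1.34 to 13.2 ± 1.08. EIF4E, encoding the cap-binding translation factor, with a rise of 0.48, and SRM, encoding spermidine synthase, with a change of -0.48 on the log2 scale, were named after their values were seen. The adjusted p was 0.0664 for NOP56 without the block, and 0.0502 for DKC1 and 0.0501 for GART without preparation 4.

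Ubiquitin ligase parts and kinases acting on cyclins, p27 and MYC had 3 of 12 tested genes fall and 2 rise, 25.0% and 16.7%. Of all genes tested 24.1% fell and 19.8% rose. Without the block 0 fell and 1 rose, where 9.48% of all genes tested fell and 9.68% rose. The ubiquitin-conjugating enzyme gene CDC34 rose from 81.7 ± 10.0 to 125.6 ± 18.6 FPKM. FBXO31, whose product directs cyclin D1 to degradation, fell from 42.8 ± 15.5 to 28.0 ± 10.1, and its adjusted p was 0.206 without the block and 0.0528 without preparation 1. CKS1B fell by 0.48 and SKP1 rose by 0.54 on the log2 scale, with adjusted p of 0.112 and 0.0752 without the block. The level of SKP1 was low, at 1.73 FPKM in basal and 2.93 in metformin libraries, percentile 4.59 of basal means. CKS1B had an adjusted p of 0.115, 0.0905 and 0.0613 without preparations 1, 2 and 4, and SKP1 of 0.126, 0.109 and 0.0731 without preparations 2, 3 and 4. FBXO4, named after its value was seen, fell by 0.42. The falls numbered 0 without preparation 1 and 1 without preparation 2 or 4, and the rises 1 without preparation 2, 3 or 4.

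**Figure D4:**
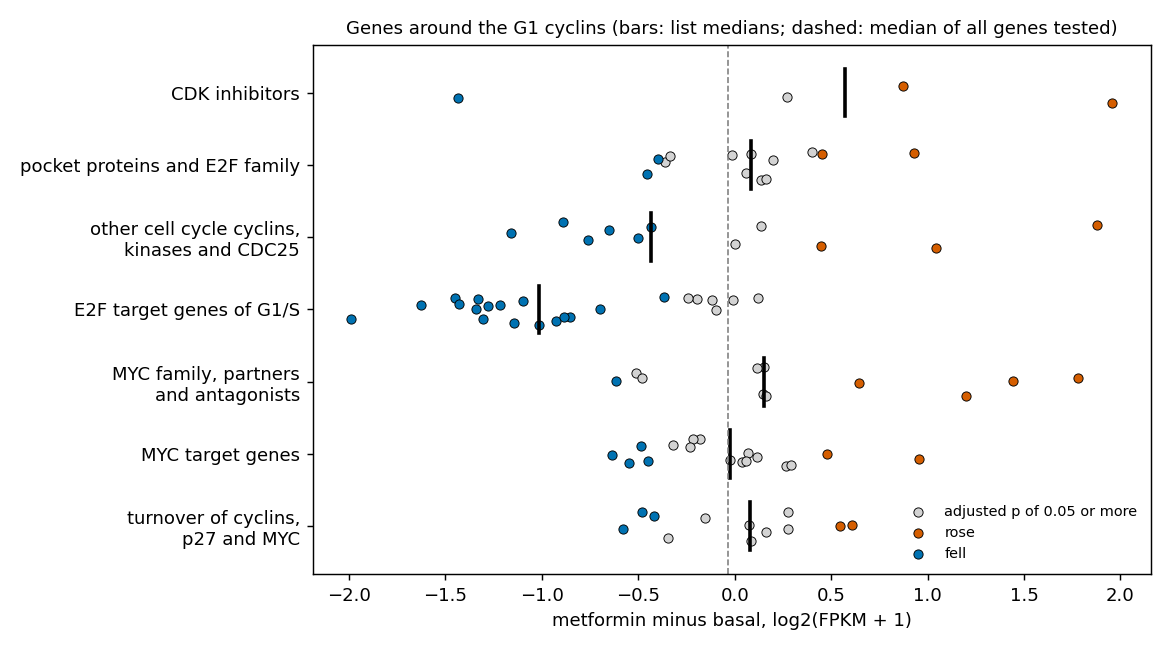
Metformin minus basal on the log2(FPKM + 1) scale for every tested gene of the 7 surrounding lists, coloured by whether it rose, fell or did not pass at an adjusted p of 0.05; vertical bars are list medians and the dashed line is the median of all genes tested (-0.04). Points are shifted up and down at random so that they can be seen, and the E2F targets lie mostly below 0, with a median of -1.02.

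By Pearson correlation of log2(FPKM + 1) over the 8 libraries, the genes most like CCND1 were POLD2 (r = 0.984), CXCL9 (0.982) and THNSL1 (0.972). Those most like E2F1 were GALNS (0.986), DHRS3 (0.984) and SKA2 (0.982), and those most like MYC were ARHGEF2 (0.994), FERMT2 (0.992) and ZNF507 (0.991). The 8 libraries share 4 preparations and 1 treatment contrast, so these values only describe likeness.

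The labelled cell type was checked by marker genes. Transferrin, TF, stood at 6099 ± 756 FPKM and albumin, ALB, at 1775 ± 1305 in basal libraries. Markers of other liver cells were present too, among them CD68 of macrophages at 614.2 ± 256 and COL1A1 of fibroblasts at 402.0 ± 155. SPP1, of the cholangiocyte list, stood at 4592 ± 3468. In the basal libraries of preparations 3 and 4 it was 6265 and 8648 FPKM, against 672.4 and 731.8 for ALB. In those of preparations 1 and 2 SPP1, at 1274 and 2180, was below ALB, at 3347 and 2351. None of the markers with a row was listed at 0 in all 8 libraries. With metformin 7 of 10 hepatocyte markers fell and 1, APOB, rose, 7 of 9 stellate and fibroblast markers fell, 5 of 9 endothelial markers fell, and 5 of 10 macrophage markers fell and 1, CD68, rose. Cholangiocyte markers had 2 of 6 rise and 2 fall, and of 6 erythroid markers 0 rose and 0 fell by limma, with 2 at an unadjusted p under 0.05. Beside these counts, 24.1% of all genes tested fell and 19.8% rose. The summed FPKM of the hepatocyte list ranged from 8290 to 14750 in basal and from 4501 to 10250 in metformin libraries. That of the stellate and fibroblast list ranged from 1752 to 3645 and from 779.4 to 2099, that of the endothelial list from 96.0 to 404.6 and from 86.7 to 308.7, and that of the macrophage list from 1085 to 2236 and from 1283 to 2166. The sum of the cholangiocyte list ranged from 1986 to 9336 in basal and from 2410 to 5163 in metformin libraries. The part of these shifts in the changes of the cyclin genes, E2F1 and MYC was not tested, and in bulk RNA fewer cells of a type and less RNA per cell cannot be told apart.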

How the data were processed

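The deposited table holds FPKM values for each gene in each library, which the authors computed with Cufflinks on Oar_v3.1, per the submitters' processing notes; the aligner and the annotation release are not given in the sources used here. P-value and q-value columns deposited by the authors come from a comparison that they named as paired. In the q-value column a placeholder stands where no q is given, which holds for 5 members. In the FPKM columns a placeholder stood in 4 cells, none of them a member's, and was treated as missing. The filter kept genes reaching 1 FPKM in 4 or more of 8 libraries. Log2(FPKM + 1) was modelled in limma 3.58.1 (R 4.3.3) with terms for preparation and treatment, moderated variances that follow a trend with the mean, a 2-sided test and Benjamini-Hochberg adjustment. Log2 changes on this scale understate the fold of genes at low FPKM. The block follows the pairing in the labels. Deviations from the group means correlated within each preparation (r from 0.489 to 0.585). The fit was tested on simulated data. FPKM depends on library composition, so 2 other scalings were among the 12 alternatives tried.

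The members and lists were chosen with earlier results of these data known. Named genes were the members, CDKN1A, CDKN1B, CDK2 and RBL1, up to 4 called genes with the lowest p per list, and the 3 genes most like CCND1, E2F1 and MYC. MAX was named after its value was seen. Of 106 listed pathway genes, 94 had a row and 91 were tested.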

Additional observations from a re-analysis of the deposited data

Results flagged for a closer look

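Of the 18 groups of 4 libraries formed by the 9 genes, 1 held a library far from the others. CCND2 had 92.2 FPKM in the basal library of preparation 3, and its gap to the nearest basal library was 0.847 of the whole range, above the 95% limit for a group of 4. Chance gives about 1 such group in 20. Without preparation 3 the log2 change of CCND2 was -0.05 (adjusted p = 0.843, limma). Of the basal libraries, that of preparation 3 was also the highest for COL1A1, COL1A2, COL3A1, DCN, LUM, PDGFRB, DES and POSTN of the stellate and fibroblast list. For ACTA2 it was not. Whether cell composition bears on the CCND2 value was not tested.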

How the results depend on the processing

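The direction of all 9 genes was kept under each of the 12 alternatives that gave a value. The calls of CCND3, CCNE2, RB1, E2F1 and MYC held wherever they could be fitted, with adjusted p of at most 0.0396 (limma). Without the replicate block, 1272 genes rose and 1246 fell, and 3 of the 9 members fell. CCND1 (log2 change -1.26, adjusted p = 0.0837) and CCNE1 (-0.49, adjusted p = 0.0584) did not pass. Under quantile normalization CCNE1 had a log2 change of -0.27 and an adjusted p of 0.0816. A mean FPKM of at least 5 left 1 member that rose and 2 that fell, because CCNE1, CCNE2, E2F1 and RB1 were no longer tested. On leaving out 1 preparation at a time, 1680 to 2320 genes rose and 1995 to 2934 fell, and the log2 change of CCNE1 ranged from -0.52 to -0.46. That of CCNE2 was -1.44 without preparation 4, and -1.61 with a pseudocount of 0.1. Of 27 other named genes with a call, 11 lost it without the block. The depth in reads is unknown, so counting error at the low levels of RB1, E2F1 and the E-type cyclins was not estimated.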

Other observations

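Rows named as other cyclins or cyclin-dependent kinases were read after the values above were known. Of 21 other cyclin rows 17 were tested, of which 7 rose and 5 fell, where 19.8% of all genes tested rose and 24.1% fell. CCNG2, a cyclin linked to cell cycle arrest, rose from 10.7 ± 2.31 to 30.5 ± 11.2 FPKM with a fitted log2 change of 1.39 (adjusted p = 0.00107, limma). CCNJ rose from 8.12 ± 3.23 to 23.9 ± 5.16, and CCNT1, a partner of CDK9 in transcription elongation, from 10.4 ± 1.29 to 20.9 ± 4.01. The other genes that rose were CCNC, CCNI, CCNL1 and CCNL2. CCNA2, the S and G2 phase cyclin A2, fell from 8.91 ± 4.75 to 3.21 ± 1.20 (log2 change -1.16, adjusted p = 0.00506, limma), and CCNB2, CCNB3, CCNF and CCNI2 also fell. CCNB1 was listed at 0 in all 8 libraries, and whether its row missed reads of the transcript was not tested.

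Of 15 other rows of cyclin-dependent kinases 14 were tested, of which 5 fell and 1 rose. Among all genes tested 24.1% fell and 19.8% rose. The median log2 change of the 14 kinase genes was -0.09. Beside CDK2, CDK16 fell from 65.0 ± 12.6 to 39.1 ± 5.05 FPKM and CDK10 from 26.2 ± 4.39 to 15.8 ± 3.07, and CDK5 and CDK18 fell by 0.55 and 0.51 on the log2 scale. CDK17 rose by 0.54. CDK7, CDK8 and CDK9, which act in transcription, did not pass, at log2 changes of 0.14, 0.30 and -0.01.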
